A study of Mus musculus with 4 samples.

Results

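The 10 genes described here encode cytokines, receptors and adhesion proteins that the protease ADAM17 is known to cut from the cell surface, outside the family of epidermal growth factor receptor ligands: Tnf, Csf1, Tnfrsf1a, Tnfrsf1b, Il6ra, Sdc1, Sdc4, Cd44, Icam1 and Vcam1. They were chosen by name, and every non-control probe that the array files assign to one of them was taken, 18 of 41174 probes in all. Of these, 16 probes passed the filter on dim signal and were tested, among 22188 probes tested, and each of the 10 genes kept at least 1 probe among 15548 genes tested. The samples were back skin of mice on postnatal day 10, on a mixed 129Sv and C57BL/6 background, each hybridised to an Agilent whole mouse genome array. The conditional knockout group (cKO, n = 2) was Adam17 flox/flox and carried Krt14-Cre, a Cre recombinase driven by the keratin 14 promoter of basal keratinocytes. The control group (n = 2) consisted of littermates without Krt14-Cre, which the study calls wild-type. With 1 parent Adam17 flox/flox and the other Adam17 flox/+ with Krt14-Cre, every pup carried at least 1 floxed allele, and which controls carried 2 was not stated. Each of 2 litters gave 1 control and 1 cKO pup. Because only the cKO pups carried Cre, an effect of Cre itself and an effect of losing ADAM17 cannot be told apart. Whole skin also holds fibroblasts, vessels, fat, muscle and immune cells, where Krt14-Cre is not expressed.

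ADAM17 is a metalloprotease of the plasma membrane that releases the ectodomains of many membrane proteins, a step called shedding. Tumour necrosis factor is its founding substrate, and shedding turns a membrane-bound cytokine or receptor into a soluble one, which can spread a signal, end it or compete for its ligand. In skin, several of these proteins sit on keratinocytes (syndecans, CD44), others on vessels (ICAM1, VCAM1) or on macrophages and their precursors. The arrays measured mRNA, so neither the shed nor the membrane-bound protein was measured.

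Levels are given as log2 of a probe's signal minus the array's 75th percentile, so that 0 is the 75th percentile and 1 unit is a doubling. Differences are cKO minus control on that log2 scale, with the standard error (SE) and 95% interval of a limma fit over the 4 arrays. Adjusted p-values are Benjamini-Hochberg values over all genes tested, or over all probes tested where a second probe of a gene is described, with 0.05 as the threshold. Since probes differ in how strongly they hybridise, levels of different probes are not compared as amounts of RNA. The tested probe with the highest mean stands for a gene, and summed levels of marker genes weigh bright probes most. A difference in whole skin can come from fewer cells of a type or from less RNA per cell, and these cannot be told apart here.

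The arrays were alike in brightness. The 75th percentile signal lay between 751 and 784, and 53.7% to 56.6% of gene spots were well above background. All 8 basal and all 8 suprabasal keratinocyte markers and all 8 fibroblast markers were measured while none of 6 B cell and plasma cell markers passed the filter. Over all genes, limma called 53 of 15548 at an adjusted p under 0.05 (0.341%), 11 higher (0.0707%) and 42 lower (0.27%) in cKO skin. With litter as a replicate block it called 0, with 3703 genes at an unadjusted p under 0.05 and the lowest adjusted p at 0.0566. It also called 0 without the litter 1 control (1839 genes at an unadjusted p under 0.05), 0 without the litter 2 control (1748 genes) and 24 without the litter 2 knockout. Adam17 itself read 0.44 and 0.37 in the controls and -0.14 and -0.12 in the cKO skins of litters 1 and 2. Both knockout values lay below both controls, a difference of -0.54 ± 0.09 (SE, adjusted p = 0.114 by limma). Both Adam17 probes lie towards the 3′ end of the transcript, and the sources used here do not name the deleted exons, so these probes do not check the deletion itself.

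None of the 10 genes passed the threshold, against 0.341% of all genes. Sdc1 lay lower in both knockout skins, at 70.1% of the control level. It was the only one of the 10 with an unadjusted p under 0.05, against 16.1% of all genes. With litter as a replicate block, 4 of the 10 had one, against 23.8% of all genes: Sdc1 (unadjusted p = 0.0050), Tnf (0.013), Tnfrsf1b (0.0194) and Icam1 (0.0263) by limma. Their adjusted p-values in that fit were 0.115, 0.138, 0.152 and 0.167, none past the threshold. The 2 groups did not overlap for 5 of the 10 genes, against 49.4% of all genes. Of these 5, Tnf, Tnfrsf1a and Icam1 were higher in cKO skin (28% of all genes were higher without overlap) and Sdc1 and Il6ra were lower (21.4%). Within litters, 5 of the 10 were higher in both (40.4% of all genes), 3 were lower in both (32.1%) and 2 were mixed. The median difference of the 10 was 0.08, with 0.08 in litter 1 and 0.01 in litter 2, against 0.03 for all genes. Without the block these shares are close to the background. In the block fit 4 of 10 is above the 23.8% of all genes, with 3 of them higher and Sdc1 lower. Counts over 10 genes cannot decide whether they moved together. One of the 10, Tnf, was well above background in only 1 of the 2 controls and passed the filter through the cKO arrays, so its inclusion is no support for a higher level. The 9 genes measured well above background on all 4 arrays had a median of 0.06. Probe by probe, 0 of the 16 tested passed the threshold over all probes (0.158% of 22188 did). An unadjusted p under 0.05 was found for 3 of the 16, against 15.4% of all probes. The groups did not overlap on 9 of the 16, against 48.4% of all probes. Of these, 7 were higher in cKO skin (25.8% of all probes) and 2 were lower (22.6%).

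**Figure D1:**
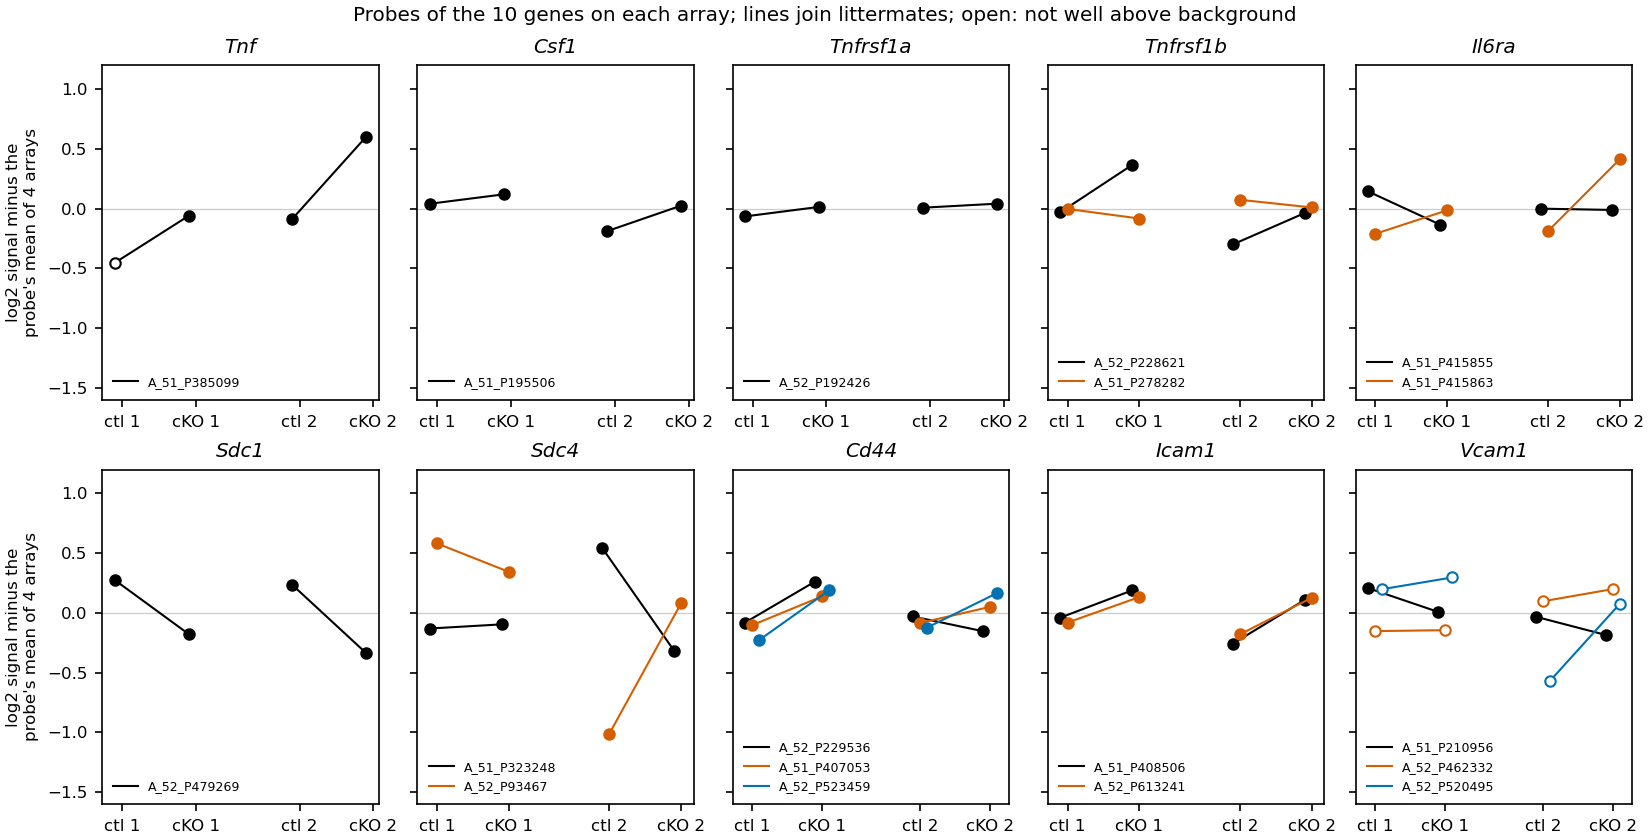
Each panel is 1 gene and each line 1 probe. The y axis is the probe's log2 signal on an array minus its mean over the 4 arrays, and lines join the control (ctl) and cKO pup of a litter. Open circles are arrays where the probe was not well above background. Sdc1 lies lower in the cKO pup of both litters, while the probes of Sdc4 cross.

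**Figure D2:**
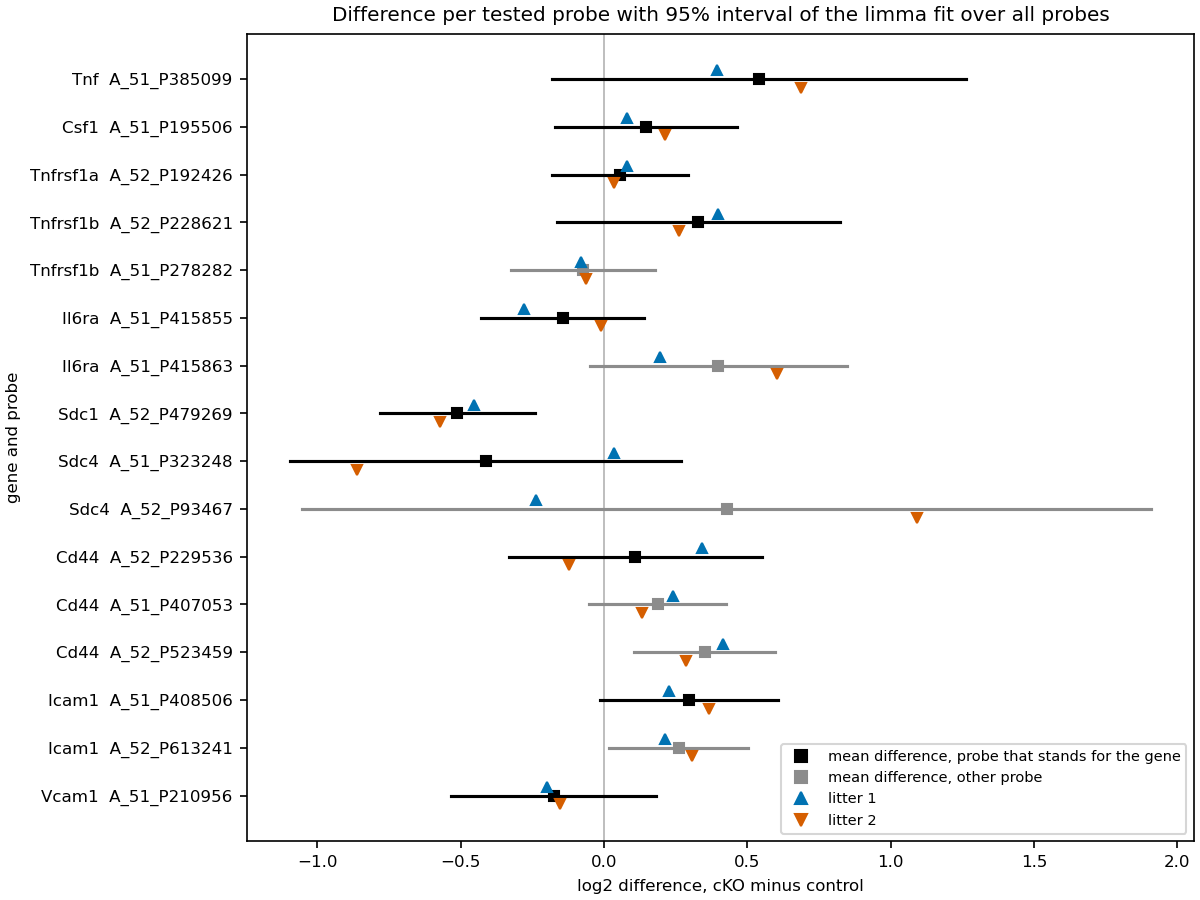
The x axis is the log2 difference, cKO minus control, for the 16 tested probes. Squares are means over both litters, bars are 95% intervals of the limma fit over all probes, and triangles are the single litters. Intervals of 13 probes include 0, and those of the Sdc1 probe, 1 Cd44 probe and 1 Icam1 probe do not, before adjustment for the number of probes tested.

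Several genes had probes to different stretches of their mRNA, and the probe sequences of 4 of them show which stretch was read. They are printed 5′ to 3′ as the array's design gives them, in lower case, with no part marked. They were chosen because the pair of Il6ra probes gave differences of opposite sign, because the Tnfrsf1b and Cd44 stretches gave smaller differences than another probe of the gene, and because the Icam1 stretch gave nearly the same difference.
Il6ra A_51_P415855: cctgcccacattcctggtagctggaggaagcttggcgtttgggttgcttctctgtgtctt
Il6ra A_51_P415863: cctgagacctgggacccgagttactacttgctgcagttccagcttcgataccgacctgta
Tnfrsf1b A_51_P278282: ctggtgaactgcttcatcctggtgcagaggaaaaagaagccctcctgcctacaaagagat
Cd44 A_51_P407053: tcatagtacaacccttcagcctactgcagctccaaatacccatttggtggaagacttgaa
Icam1 A_52_P613241: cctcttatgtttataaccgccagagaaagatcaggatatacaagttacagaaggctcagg

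Among the cytokines, Tnf, which encodes tumour necrosis factor, was dim. Its probe (mm9 chr17:35336795-35336854, minus strand) read -4.64 and -4.27 in the controls of litters 1 and 2 and -4.25 and -3.59 in the cKO skins. The litter 2 knockout stood highest, and the litter 1 knockout lay only just above the litter 2 control. This probe was printed 10 times per array. In the litter 1 control 3 of the 10 spots were well above background, 1 of which was flagged and left out. The count was 6 in the litter 2 control, 8 in the litter 1 knockout and 10 in the litter 2 knockout. The unflagged spots of the 2 groups overlapped, from 23.3 to 48.4 signal units in controls and from 32.9 to 72.3 in knockouts. The difference was 0.54 ± 0.27 (SE), with a 95% interval from -0.18 to 1.26 and an adjusted p of 0.423 by limma. It was 0.39 in litter 1 and 0.69 in litter 2. The interval, from the fit without a litter block, holds both no change and more than a doubling. With litter as a replicate block the same difference had an unadjusted p of 0.013 and an adjusted p of 0.138 by limma. Tnf passed the threshold in neither fit, so a difference in it was not resolved.

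Csf1 encodes colony-stimulating factor 1, the growth factor of macrophages, whose membrane form is shed. Its probe (mm9 chr3:107544333-107544392, minus strand) read -0.35 and -0.58 in the controls and -0.27 and -0.37 in the knockouts. The litter 1 control lay between the knockouts, so the groups overlapped. The difference was 0.15 ± 0.12 (SE), with a 95% interval from -0.17 to 0.46 (adjusted p = 0.592 by limma).

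Of the list of CSF1 and macrophage genes, 17 of 19 were tested and none passed the threshold. In both litters 14 of the 17 were higher and 2 were lower, and the median was 0.25 against 0.03 for all genes. That median was 0.09 without the litter 2 control, 0.12 without the litter 1 knockout and 0.08 under normexp background correction. The smallest p belonged to Trem2, a macrophage receptor that ADAM17 also sheds. It read -2.82 and -2.89 in controls and -1.79 and -2.38 in knockouts, a difference of 0.77 ± 0.22 (SE, adjusted p = 0.229 by limma). Next came Cebpa, a transcription factor of myeloid cells and of differentiating keratinocytes, with a difference of 0.25 ± 0.09 (SE, adjusted p = 0.291) that was 0.02 under normexp. The 8 macrophage markers were all measured, 6 of them higher in each litter's knockout, and their median was 0.19. Their summed level, relative to the 75th percentile on the linear scale, was 4.71 to 6.71 in controls and 5.89 to 6.92 in knockouts, ranges that overlap. The part of these cells in the Tnf and Csf1 values was not tested.

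Among the receptors, Tnfrsf1a, the broadly expressed TNF receptor 1 that carries a death domain, had the difference closest to 0 of the 10. Its probe (mm9 chr6:125312376-125312435, plus strand) read 2.96 and 3.03 in controls and 3.04 and 3.06 in knockouts. The groups were separate by less than the gap between the controls. The difference was 0.06 ± 0.09 (SE), with a 95% interval from -0.17 to 0.29 (adjusted p = 0.784 by limma).

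Tnfrsf1b encodes TNF receptor 2, which is more restricted to immune and endothelial cells. The probe with the higher mean (mm9 chr4:144804304-144804363, minus strand) read -2.76 and -3.03 in controls and -2.37 and -2.77 in knockouts. Each knockout was higher than its own littermate, by 0.40 in litter 1 and 0.26 in litter 2, but the litter 2 knockout did not exceed the litter 1 control. The difference was 0.33 ± 0.18 (SE), with a 95% interval from -0.16 to 0.82 (adjusted p = 0.462 by limma). The probe A_51_P278282 printed above, which lies nearer the 5′ end and spans 574 genomic bases (mm9 chr4:144812866-144813439, minus strand), read -3.09 and -3.01 in controls and -3.17 and -3.08 in knockouts. On this probe each knockout was a little lower than its littermate. The difference was -0.07 ± 0.09 (SE, 95% interval -0.32 to 0.18), so the sign of the Tnfrsf1b difference depended on the probe.

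Genes that act downstream of the TNF receptors were on both sides. All 30 genes of the TNF receptor signalling list were tested and none passed the threshold. In both litters 15 of them were higher and 7 were lower, and the median was 0.06. The smallest p belonged to Map3k5, the stress kinase ASK1, at 1.39 and 1.36 in controls against 0.90 and 1.10 in knockouts, a difference of -0.38 ± 0.10 (SE, adjusted p = 0.227 by limma). Tnfaip3, the ubiquitin-editing inhibitor A20 of NF-kB signalling, read -0.20 and -0.06 in controls and -0.44 and -0.51 in knockouts, a difference of -0.35 ± 0.10 (SE, adjusted p = 0.229).

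NF-kB is the transcription factor family that TNF receptors activate. Of the NF-kB target list, 19 of 28 genes were tested, all well above background on all 4 arrays, and none passed the threshold. The untested genes, among them Il6, Cxcl1, Cxcl2, Cxcl5 and Lcn2, had no value well above background or had no probe. In both litters 14 of the 19 were higher and 0 were lower, and the median was 0.32 (0.24 with no filter on dim probes). These counts hold for the genes listed as targets here. Tnfaip3 (-0.35), Traf1 (-0.36) and Cflar (-0.31), which NF-kB also induces, are on the TNF receptor signalling list and were lower in both litters. On that list Nfkb1 (0.28) and Birc3 (0.33), which NF-kB induces too, were higher in both. An unadjusted p under 0.05 was found for 9 of the 19, all higher in cKO skin, which is 47.4% of those tested. Of all genes 16.1% had one in either direction, and 1247 of 15548 had one and were higher. The smallest p belonged to Ccl20, a chemokine that attracts CCR6-bearing lymphocytes and dendritic cells. It read -3.63 and -3.76 in controls and -2.75 and -2.88 in knockouts, a difference of 0.88 ± 0.10 (SE, adjusted p = 0.0728 by limma). Ccl5, a chemokine for T cells and monocytes, read -3.65 and -3.74 in controls and -3.18 and -2.86 in knockouts, a difference of 0.67 ± 0.14 (SE, adjusted p = 0.159). Suprabasal keratinocyte markers were higher as well in cKO skin: 6 of 8 were so in each litter, their median was 0.41 and their summed level was 555 to 570 in controls and 681 to 807 in knockouts. T cell markers had a median of -0.58, and 5 of 7 were lower in each litter. The median was -0.49 over the 6 that were well above background on all 4 arrays. The summed level of the 7 was 13.8 to 18.4 in controls and 13.5 to 19.0 in knockouts, ranges that overlap. Markers of fat cells (median 0.56, 6 of 8 higher in each litter), mast cells (0.45, 5 of 6 higher) and skeletal muscle (0.40, 6 of 8 higher) lay above 0 as well, and those of red cells below (-0.43, 4 of 4 lower). Only 3 of 8 neutrophil markers were tested, with a median of -0.27 and 2 of 3 lower in each litter. Summed levels of the fat, mast and red cell markers overlapped between groups, while those of the muscle and neutrophil markers did not. The part of these cells in the chemokine values was not tested.

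Il6ra encodes the ligand-binding chain of the interleukin 6 receptor, whose shed form enables signalling in cells that lack the receptor. The probe A_51_P415855 (mm9 chr3:89680743-89680802, minus strand) read -1.88 and -2.03 in controls and -2.16 and -2.04 in knockouts. The groups were separate only narrowly, because the litter 2 pups were nearly equal. The difference was -0.14 ± 0.10 (SE), with a 95% interval from -0.42 to 0.13 (adjusted p = 0.556 by limma). The probe A_51_P415863 (mm9 chr3:89690491-89690550, minus strand) lies nearer the 5′ end, from base 834 of the transcript against base 1208. It read -4.04 and -4.02 in controls and -3.84 and -3.42 in knockouts. Here both knockouts lay above both controls, with a difference of 0.40 ± 0.17 (SE, 95% interval -0.05 to 0.85, adjusted p over probes 0.363 by limma). The 2 probes thus differed in sign, and neither passed the threshold.

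Of the interleukin 6 family list, 19 of 23 genes were tested and none passed the threshold, and the median was -0.03, with 6 higher and 6 lower in both litters. The sign of that median turned in every fit that left out 1 array except the one without the litter 2 control. Il6 itself was among those that did not pass the filter on dim signal. The smallest p belonged to Il11ra1, the receptor chain for interleukin 11, at 5.68 and 5.77 in controls against 5.29 and 5.13 in knockouts, a difference of -0.52 ± 0.10 (SE, adjusted p = 0.146 by limma). Cish, a feedback inhibitor of cytokine receptor signalling, was 2.83 and 2.88 in controls and 2.36 and 2.60 in knockouts, a difference of -0.38 ± 0.11 (SE, adjusted p = 0.245).

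Sdc1, which encodes the heparan sulfate proteoglycan syndecan 1 of epithelial cells, had the smallest p of the 10 genes. Its probe (mm9 chr12:8799383-8799442, plus strand) had signals of 32171 and 32639 in the controls and 24174 and 21791 in the knockouts of litters 1 and 2. On the log2 scale these are 5.42 and 5.38 against 4.97 and 4.81. Both knockouts lay below both controls, and the gap between the groups was larger than the spread within either. The difference was -0.51 ± 0.10 (SE), with a 95% interval from -0.78 to -0.25, an unadjusted p of 0.0051 and an adjusted p of 0.143 by limma. It was -0.45 in litter 1 and -0.57 in litter 2. Of all genes tested, 3.55% had a smaller p and 680 lay lower. The difference did not pass the threshold under any of the 13 alternatives, where it ranged from -0.80 to -0.43.

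Of the basal keratinocyte markers, 7 of 8 were higher in each litter, against 40.4% of all genes, and their median was 0.17. Their summed level was 650 to 659 in controls and 695 to 714 in knockouts. The part of keratinocytes in the Sdc1 value was not tested. Over the 4 arrays, after each gene was centred on its own mean, the genes nearest to Sdc1 were Lpin3, Pthlh and Prss22, at Euclidean distances of 0.03, 0.05 and 0.05 log2 units. They were chosen for this nearness, among genes with a current symbol. Their differences between groups, -0.52, -0.48 and -0.48, are therefore like that of Sdc1 by choice. A pattern over 4 arrays is easily matched, and 34 genes lay within 0.1 of Sdc1. For Tnf, the member with the largest positive difference, the nearest were Npl, Clca2 and Hal, at distances of 0.09, 0.11 and 0.12.

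Sdc4, which encodes the widely expressed syndecan 4 of focal adhesions, could not be placed. The probe with the higher mean (mm9 chr2:164250116-164250175, minus strand) had signals of 3936 and 6546 in the controls and 4145 and 3580 in the knockouts. On the log2 scale these are 2.39 and 3.06 against 2.42 and 2.20. The litter 2 control stood apart above the other 3 arrays. The difference was -0.41 ± 0.25 (SE, 95% interval -1.09 to 0.27, adjusted p = 0.499 by limma). Without the litter 2 control it was -0.08, and without the litter 1 control it was -0.75. The second probe (mm9 chr2:164251211-164251270, minus strand), which lies nearer the 5′ end, had signals of 1330 and 461 in the controls and 1160 and 976 in the knockouts. The same litter 2 control that was highest on the first probe was lowest on the second. The difference on the second probe was 0.43 ± 0.55 (SE), with a 95% interval from -1.05 to 1.91. No direction can be read from these probes.

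Of the list of other syndecan and heparan sulfate genes, 27 of 29 were tested and none passed the threshold. In both litters 12 of the 27 were higher and 3 were lower, and the median was 0.04. Prkca, a kinase that binds the syndecan 4 tail, had the smallest p, with a difference of -0.41 ± 0.10 (SE, adjusted p = 0.200 by limma) that turned to 0.15 under normexp background correction. Glce, an epimerase of heparan sulfate synthesis, had a difference of 0.25 ± 0.09 (SE, adjusted p = 0.307) that was 0.09 under normexp.

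Among the adhesion proteins, Cd44, which encodes the hyaluronan receptor of keratinocytes and leukocytes, was read by 3 probes. The probe that stands for the gene (mm9 chr2:102652907-102652966, minus strand) read 2.67 and 2.72 in controls and 3.01 and 2.60 in knockouts. One knockout lay above both controls and the other below both. The difference was 0.11 ± 0.16 (SE, 95% interval -0.33 to 0.55, adjusted p = 0.781 by limma). The probe A_52_P523459 lies nearer the 3′ end (mm9 chr2:102651667-102651726, minus strand) and was printed 10 times per array. It read 1.73 and 1.83 in controls and 2.14 and 2.12 in knockouts. All its control spots, at 2283 to 2974 signal units, lay below all its knockout spots, at 3163 to 3648. The difference was 0.35 ± 0.09 (SE, 95% interval 0.11 to 0.60, adjusted p over probes 0.224 by limma). The probe A_51_P407053 printed above (mm9 chr2:102674420-102674479, minus strand) is listed in the files against 2 RefSeq and 2 Ensembl transcripts, where the others are listed against 3 RefSeq and 1 Ensembl transcript. It read -3.56 and -3.54 in controls and -3.32 and -3.41 in knockouts, again with the knockouts above, a difference of 0.19 ± 0.09 (SE, 95% interval -0.05 to 0.43). So 2 of the 3 Cd44 probes separated the groups, the probe that stands for the gene did not, and none passed the threshold.

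Icam1 encodes the ligand of leukocyte integrins on vessels and on activated keratinocytes. The probe with the higher mean (mm9 chr9:20833186-20833245, plus strand) read 1.03 and 0.81 in controls and 1.26 and 1.18 in knockouts. Its 10 spots per array ran from 1310 to 1599 signal units in controls and from 1681 to 1922 in knockouts, with no overlap. The difference was 0.30 ± 0.11 (SE, 95% interval -0.01 to 0.60, adjusted p = 0.319 by limma). The probe A_52_P613241 printed above (mm9 chr9:20832290-20832349, plus strand) read -2.45 and -2.55 in controls and -2.24 and -2.25 in knockouts. On both probes both knockouts lay above both controls. The difference on the second was 0.26 ± 0.09 (SE, 95% interval 0.02 to 0.50, adjusted p over probes 0.304 by limma). Icam1 was thus the only gene among those with several tested probes in which every tested probe separated the groups in 1 direction. Neither probe passed the threshold.

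**Figure D3:**
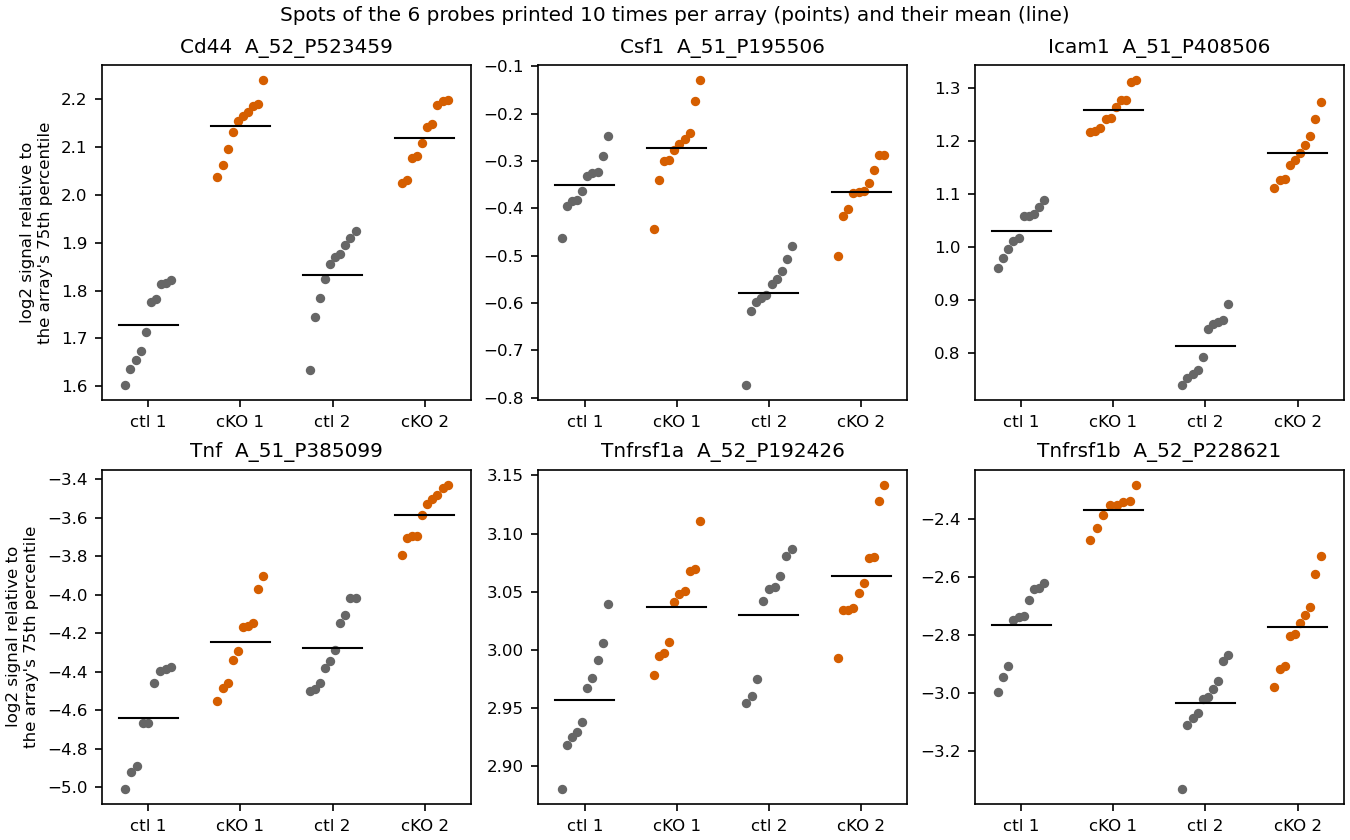
Each point is 1 unflagged spot of a probe printed 10 times per array, with the mean as a line, for controls (grey) and knockouts (orange). The y axis is log2 signal relative to the array's 75th percentile, and each panel has its own scale. Spots of the groups do not overlap for Cd44 and Icam1 and overlap for the other 4 probes. Spots are technical repeats of 1 sample and are not replicates.

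Vcam1 encodes the endothelial ligand of integrin alpha 4 beta 1. Of its 3 probes, 2 were not well above background on any array and were not tested. The third (mm9 chr3:115813216-115813275, minus strand) read -2.13 and -2.36 in controls and -2.32 and -2.52 in knockouts. Each knockout was lower than its littermate, but the litter 1 knockout lay above the litter 2 control. The difference was -0.18 ± 0.13 (SE, 95% interval -0.53 to 0.18, adjusted p = 0.572 by limma). The 8 endothelial markers were all measured, of which 5 were lower and 1 higher in each litter, and their median was -0.09. Their summed level was 7.59 to 9.46 in controls and 7.01 to 8.32 in knockouts. The part of vessel cells in the Icam1 and Vcam1 values was not tested.

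Ligands and partners of CD44, ICAM1 and VCAM1 were tested for 25 of 28 genes and none passed the threshold. In both litters 11 were higher and 6 were lower, and the median was 0.02. Hyal1, a lysosomal hyaluronidase, read -1.89 and -1.37 in controls and -2.26 and -2.50 in knockouts, a difference of -0.75 ± 0.21 (SE, adjusted p = 0.231 by limma). It was -0.09 under normexp, -1.02 without the litter 1 control and -0.49 without the litter 2 control. Has1, a hyaluronan synthase, had a difference of 0.21 ± 0.10 (SE, adjusted p = 0.383) that was 0.87 under normexp.

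Other genes whose products ADAM17 is known to cut were tested for 34 of 40, and none passed the threshold. In both litters 14 of the 34 were higher and 10 were lower, and the median was 0.08. It was -0.02 without the litter 2 control, 0.04 without the litter 1 knockout, 0.12 without the litter 2 knockout and -0.04 under normexp. The smallest p belonged to Ngfr, the neurotrophin receptor p75, which read 0.88 and 0.76 in controls and -0.24 and -0.38 in knockouts. The difference was -1.13 ± 0.10 (SE, adjusted p = 0.0534 by limma). It passed the threshold under only 1 of the 13 alternatives, quantile normalization (adjusted p = 0.0490 by limma). The adjusted p by limma was 0.0802 with litter as a replicate block, 0.247 with no filter on dim probes and 0.728 under normexp. Cx3cl1, the membrane-bound chemokine fractalkine, read 1.46 and 1.47 in controls and 2.28 and 2.22 in knockouts, a difference of 0.78 ± 0.08 (SE, adjusted p = 0.0633).

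Among sheddases and their regulators, 15 of 18 genes were tested and none passed the threshold. In both litters 7 were higher and 5 were lower, and the median was 0.07. Over the 14 that were well above background on all 4 arrays, 6 were higher and 5 were lower, with a median of 0.06. The smallest p belonged to Adam8, a sheddase of leukocytes and epithelia whose substrates partly overlap those of ADAM17. It read -0.67 and -0.61 in controls and 0.29 and 0.39 in knockouts, a difference of 0.98 ± 0.09 (SE, adjusted p = 0.0534 by limma). Adam17, described above, was next.

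**Figure D4:**
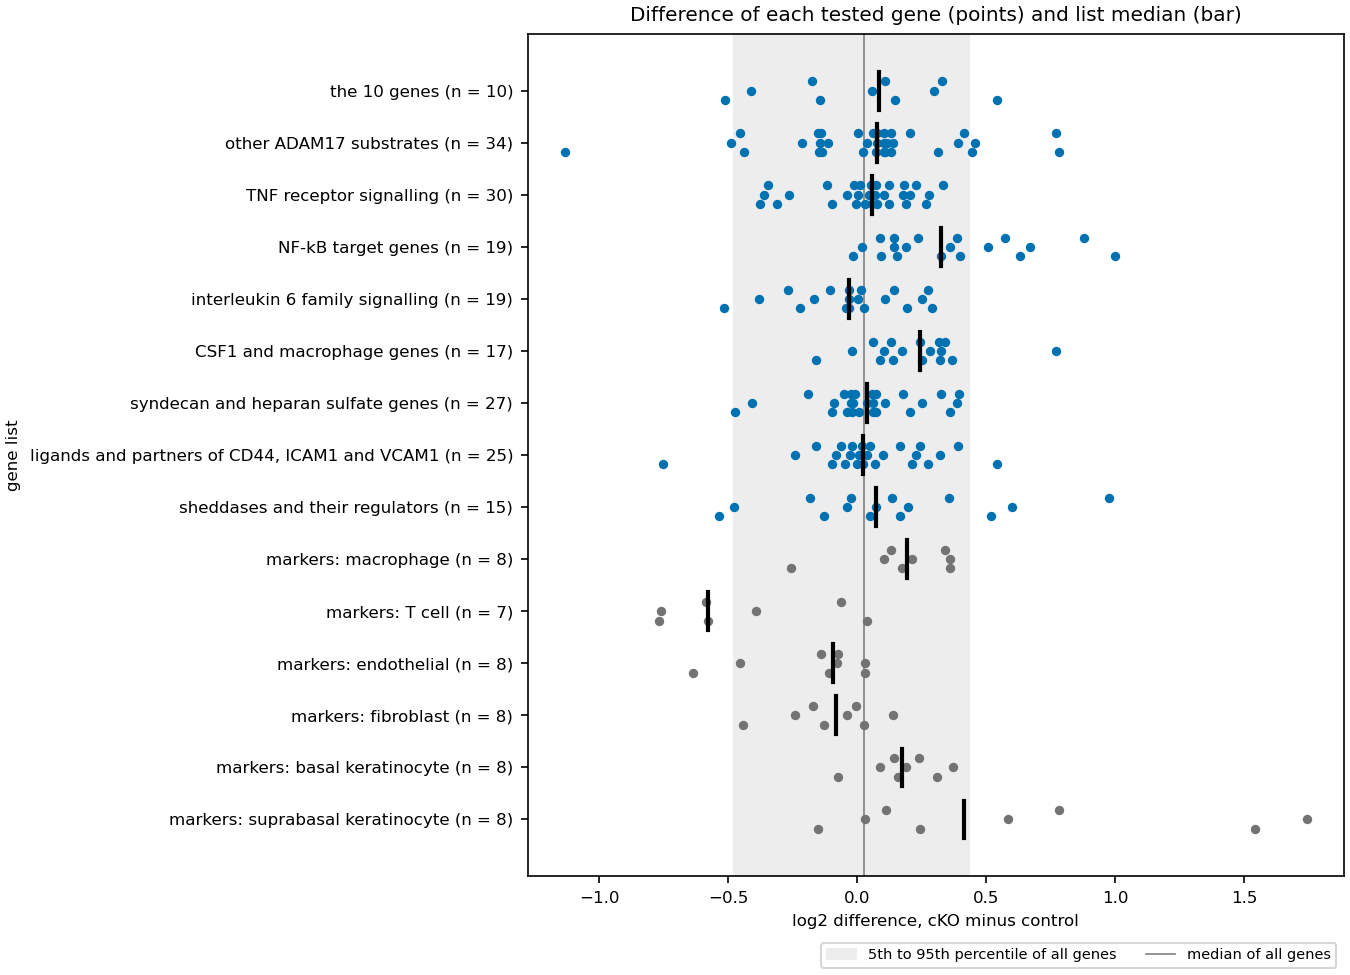
Each point is the log2 difference, cKO minus control, of 1 tested gene, in blue for the 10 genes and the pathway lists and in grey for cell type markers, and the black bar is the list's median. The grey band runs from the 5th to the 95th percentile of all genes tested, from -0.48 to 0.44. The medians of the NF-kB targets (0.32), the CSF1 and macrophage genes (0.25) and the suprabasal markers (0.41) lie above that of the 10 genes (0.08), and that of T cell markers (-0.58) lies below the band.

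Promoter sequence was examined because the listed NF-kB targets leaned to higher values (median 0.32) and the 10 genes less so (median 0.08). Tnf, Icam1, Vcam1 and Csf1 are themselves known NF-kB targets, so the lists are not distinct classes. In both litters Tnf, Icam1 and Csf1 were higher and Vcam1 was lower. RefSeq promoters of 250 bases before to 50 bases after the start site (GRCm38.p6) were matched for 9 of the 10 genes, and Vcam1 was not matched. The 10-base NF-kB pattern searched was GGGRNNYYCC (R is A or G, Y is C or T, N is any base). A match to it on either strand was found in 3 of the 9 and in 13 of 21 matched NF-kB targets. The background share was 9.55% of 27025 genes with a promoter of this length (8.46% of 32851 promoters). The share among genes already listed as NF-kB targets describes that list, and whether NF-kB acted in these skins was not tested. The pattern searched is looser than GGGRNWYYCC, where W is A or T. The Sdc1 match has G at W, so it does not meet the stricter pattern, for which no shares were counted. The matching stretches are printed on the gene's strand with the match in capitals. They lie at chr2:164443236-164443295 (Sdc4, minus strand), chr3:107760589-107760648 (Csf1, minus strand) and chr12:8771237-8771296 (Sdc1, plus strand).
Sdc4: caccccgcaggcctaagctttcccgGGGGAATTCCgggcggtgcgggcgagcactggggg
Csf1: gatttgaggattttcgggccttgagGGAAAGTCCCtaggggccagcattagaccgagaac
Sdc1: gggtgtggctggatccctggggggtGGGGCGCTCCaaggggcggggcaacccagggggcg
The 3 genes with a match had differences of -0.41, 0.15 and -0.51 in that order, none past the threshold. A match is a run of letters and not a binding site, and the other 6 promoters lack these letters only within this window.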

How the data were processed

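RNA from 4 back skins, 500 ng each, was labelled with Cy3 and hybridised to 1-colour arrays, per the labels' protocols. Agilent Feature Extraction made the values: version 10.5 per the submitters' processing notes, 10.7.3.1 per the file headers. The deposited scanner files hold intensity per spot, background-subtracted by the authors' software, and probe positions in mm9 per the file headers. The authors' deposited series table holds log2 values, which equalled the scanner values scaled to the 75th percentile and centred per probe (r at least 0.99999; column medians -0.08, 0.06, -0.06 and 0.08 for control 1, control 2, cKO 1 and cKO 2). It was used as an alternative. The number of arrays limits the precision.

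Each spot's log2 intensity, less the 75th percentile of gene spots on its array, was averaged over a probe's unflagged spots (51 to 66 spots flagged per array, 0 saturated). A probe was tested if both controls or both cKO arrays read it well above background. Of several tested probes, the one with the highest mean over the 4 arrays stood for the gene. Old symbols were updated through RefSeq accessions and symbols, and 8331 probes kept the name in the files. Fits used limma 3.58.1 in R 4.3.3 with no block, two-sided, tested on simulated data. Each sample was taken as 1 pup, with n = 2 per group. Per the labels, same-numbered samples shared a litter, and their deviations from the group means correlated over genes (Pearson 0.35, Spearman 0.43). All arrays lay on 1 slide with 1 scan, so slide and scan were not testable as batches. Named genes were the 10 genes, Adam17, up to 3 genes past the threshold of each of 8 lists or else the 2 with the smallest p, and the 3 genes nearest to the members with the largest fall and rise. The members, lists and tests were chosen with earlier results of these data known. Exon and UTR annotation of probe positions was not used here. The 13 alternatives covered the block, background correction, normalization, filter, value source, flags, probe choice and leaving out each array.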

Additional observations from a re-analysis of the deposited data

Results flagged for a closer look

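In 2 genes the litters differed in sign on a probe. These differences between litters were not tested, since each litter gave 1 control and 1 cKO pup. The Sdc4 probe A_51_P323248 had a difference, knockout minus littermate control, of 0.0347 in litter 1 and -0.86 in litter 2. The other Sdc4 probe, A_52_P93467, did the opposite, with -0.24 in litter 1 and 1.09 in litter 2. The Cd44 probe A_52_P229536 differed by 0.34 in litter 1 and by -0.12 in litter 2.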

How the results depend on the processing

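No member passed the threshold under any of the 13 alternatives, where the adjusted p of single members ran from 0.115 (Sdc1, with litter as a replicate block) to 1.0. The count of all genes past the threshold, 53 as reported, was 0 with the replicate block, 0 with normexp background correction (424 genes at an unadjusted p under 0.05), 0 with no filter (2077 unadjusted), 28 with the stricter filter, 80 with quantile normalization, 35 probes (33 genes) with every probe on its own, and 0 to 38 when 1 array was left out. It was 0 without control 1 (1839 unadjusted), 0 without control 2 (1748 unadjusted), 38 without cKO 1 and 24 without cKO 2. The replicate block changed no call among the members or the other named genes. The members' median difference, 0.08 as reported, was 0.17 with normexp and ran from -0.0064 to 0.12 when 1 array was left out. Signs turned with normexp for Tnfrsf1a (-0.21), Il6ra (0.34), Cd44 (-0.0892), Vcam1 (0.54) and Prkca (0.15), with the mean of all probes for Il6ra (0.13) and Sdc4 (0.0076), and for Cd44 when 1 array was left out (from -0.0972 without cKO 1 to 0.32 without cKO 2). The cause was not tested. The other 122 of 129 member values kept their sign and their side of the threshold. Over the alternatives, list medians ran from 0.23 to 0.58 for NF-kB targets, 0.08 to 0.31 for CSF1 and macrophage genes, -0.04 to 0.12 for other ADAM17 substrates, 0.0029 to 0.07 for TNF receptor signalling, -0.12 to 0.10 for the interleukin 6 family, -0.00083 to 0.09 for syndecan and heparan sulfate genes, -0.04 to 0.12 for ligands and partners, and -0.07 to 0.10 for sheddases. Slide as a block was not run because there was 1 slide. With 2 arrays a group, and Tnf and most Vcam1 probes near background, small differences in these genes could not be resolved.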
